A study of Homo sapiens with 2 samples.

Results

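DNA replication in human cells is carried out by a set of protein complexes that assemble in order, and 56 genes encoding their subunits and their regulators were examined in U87 glioblastoma cells after silencing of HOXD9. They are the genes of origin recognition and licensing, the MCM proteins, the factors of origin firing, the DNA polymerases with primase, RPA, the clamp with its loader and Okazaki fragment enzymes, the fork protection factors, nucleotide supply and chromatin assembly. The members were taken by gene symbol, from probe sets to which the platform annotation gives a single gene, and not by their signals. All 56 genes, of 19775 genes with such a probe set, were found, on 105 probe sets.

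U87 is a long-established line of human glioblastoma cells. Cells were transfected with HOXD9 siRNA-2 or with a non-silencing control siRNA, each at 50 nM with Lipofectamine RNAiMAX, and RNA was taken on Day 2. The sample titles give HOXD9 siRNA without a number, and siRNA-2 comes from the treatment protocol. HOXD9 encodes a homeodomain transcription factor, and each condition was measured on 1 Affymetrix U133 Plus 2.0 array. With 1 array per condition there is no spread between replicates, so no SD, p-value or test is given, and every ratio compares 2 arrays. The transfected population was measured as a whole, and fewer replicating cells cannot be told apart from less RNA per cell.

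In each cell cycle the origin recognition complex marks origins, and CDC6 and CDT1 load the ring of MCM2 to MCM7 onto them, a step called licensing. The kinase CDC7 with its activator DBF4, together with cyclin-dependent kinases, then brings CDC45 and GINS to the MCM ring and so turns it into the active helicase. Polymerases, the PCNA clamp and its loader RFC copy the unwound strands, which RPA coats. Many of these genes are known E2F targets that are transcribed as cells enter S phase, and in glioblastoma, as in other tumors, several of their proteins are used as signs of proliferation.

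Values are linear signal intensities as deposited, and log2 ratios are those of HOXD9 siRNA-2 over control siRNA. Over all probe sets the HOXD9 siRNA array had a median of 18.3 and the control siRNA array a median of 22.5, and the median log2 ratio of 11624 genes was -0.25. A typical gene thus read lower after HOXD9 silencing, and centering each array on its median adds 0.30 to every log2 ratio. Probe sets whose mean signal over both arrays reached 19.8, the median over the array, were kept, and each gene is represented by its brightest one. Signals at or under 18.4, the highest value of 27 Bacillus subtilis control probe sets on either array, count as background. That value came from the HOXD9 siRNA array and was applied to both, whereas on the control siRNA array the highest was 11.4. Within genes, log2 ratios of different probe sets scattered with a pooled SD of 0.41 (6081 genes). This spread holds noise between probe sets of the same 2 arrays only, not the variation between transfections, and is no replicate error. HOXD9 itself gave 5.58 and 11.4 on its 2 probe sets with HOXD9 siRNA-2, against 19.7 and 9.33 with control siRNA, so 3 of these 4 signals lay within the background and the first probe set was at least 1.07-fold lower as deposited. After centering, with a background of 22.6, all 4 lay within background and no bound on the silencing remained. Of the markers examined for glioma cells, VIM, CD44, TNC and NES lay above background on both arrays, whereas GFAP and S100B lay within it on both, and SOX2 on the HOXD9 siRNA array. PTPRC of leukocytes and RBFOX3 of neurons lay within background, and PECAM1 of endothelium and EPCAM of epithelium did not exceed 43.4 on their brightest probe sets. Neither the few signals of other cell types nor the offset between the arrays was tested for its part in the results.

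As a group, the replication genes stood below the other genes of the array. All 56 passed the signal filter, on 96 of their 105 probe sets. Their median log2 ratio was -0.58, against -0.25 for all 11624 genes, and the values were -0.28 and 0.05 once both arrays were centered on their medians. Of the 56 genes 50 (89.3%) lay below the median of all genes, and 38 (67.9%) lay below the lower quartile, -0.48. These counts are not altered by centering, which shifts all genes alike. The log2 ratio was below 0 in 54 genes (96.4%) as deposited, against 83.2% of all genes, and in 49 (87.5%) after centering, against 43.7%. The 2 genes above 0 as deposited were ORC2 and CHAF1B.

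The differences were small for each gene taken singly. By more than 2-fold, the threshold that the study used, 4 of 56 genes (7.14%) were lower, against 4.95% of all genes, and 0 were higher, against 0.516%. A share of 7.14% is near the background of 4.95%, and it rests on the scale. After centering, quantile normalization or removal of a loess trend, CDT1 alone remained past 2-fold, or 1.79% of the members. The shares of all genes were 2.31%, 2.24% and 2.25%. At a threshold of 1.5-fold, chosen after the data were seen, 27 genes (48.2%) were lower, against 17.8% of all genes, and after centering 6 (10.7%), against 6.74%. No member was higher by 2-fold after centering, against 1.17% of all genes, or by 1.5-fold, against 1.63% of all genes as deposited and 5.06% after centering. CHAF1B came close to 1.5-fold after centering (log2 ratio 0.58) and passed it after quantile normalization (0.62) and loess (0.61). The offset of the group median from that of all genes was -0.33 on the log2 scale, and no replicate arrays exist to set it against.

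**Figure D1:**
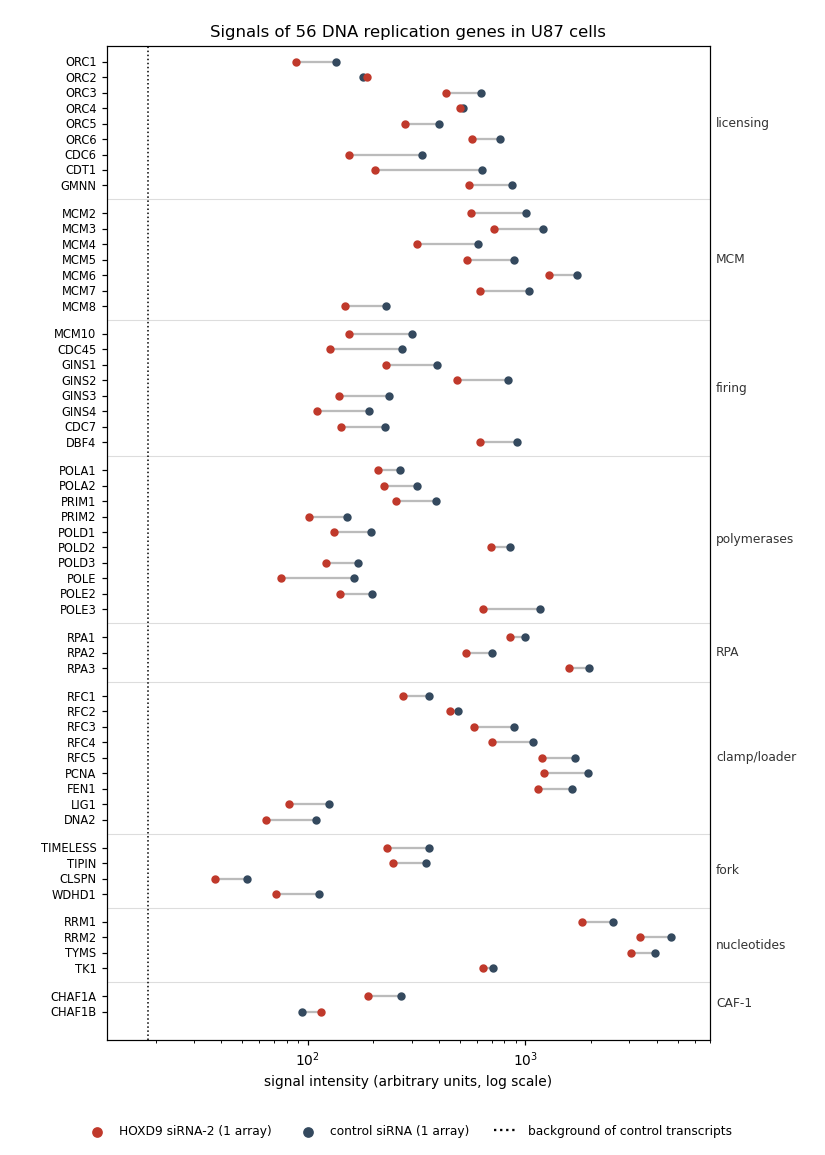
Signal of the brightest kept probe set (x axis, arbitrary units, log scale) of each of 56 replication genes (y axis) with HOXD9 siRNA-2 (red, 1 array) and control siRNA (dark blue, 1 array). The dotted line marks the background of 18.4. The red point lies left of the dark one in 54 genes, and right of it in ORC2 and CHAF1B.

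Members had lower medians than genes of like signal at each signal level. When the 11624 genes were split by signal into 3 classes of like size, 28 members fell in the brightest class, 23 in the middle one and 5 in the dimmest. In the brightest class the median log2 ratio was -0.52 for the members and -0.20 for all genes, and 25 of the 28 members lay below the median of that class. In the middle class the medians were -0.61 and -0.28, and 22 of 23 members lay below. In the dimmest class they were -0.60 and -0.31, with 4 of 5 members below.

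**Figure D2:**
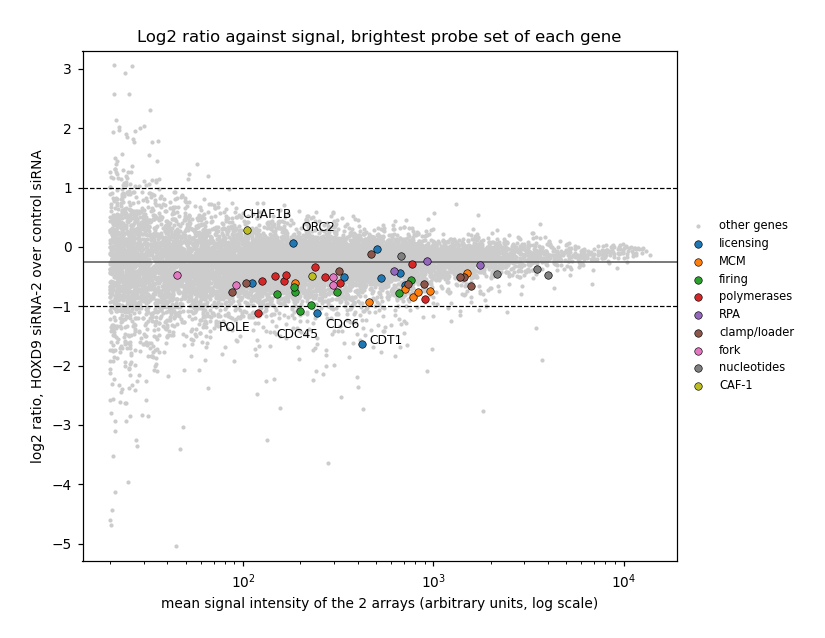
Log2 ratio of HOXD9 siRNA-2 over control siRNA (y axis) against the mean signal of both arrays (x axis, log scale) for the brightest kept probe set of each gene. Members are colored by subcomplex and other genes are gray, with dashed lines at 2-fold and a solid line at -0.25, the median over genes. CDT1, CDC6, POLE and CDC45 lie below the lower dashed line, and most members lie between it and the solid line.

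The 4 genes past 2-fold as deposited were CDT1, CDC6, CDC45 and POLE, or 7.14% of the members, near the 4.95% of all genes. Which genes pass depends on the processing, and after centering CDT1 alone did. CDT1, which brings the MCM ring to origins, had a signal of 204 with HOXD9 siRNA-2, against 635 with control siRNA, a log2 ratio of -1.63. Its dimmer probe set gave 68.2 with HOXD9 siRNA-2 and 110.1 with control siRNA, or -0.69. CDC6, the ATPase that works with CDT1, gave 154 with HOXD9 siRNA-2 and 335 with control siRNA, a log2 ratio of -1.12. Its other probe set gave 138 with HOXD9 siRNA-2 and 302 with control siRNA, or -1.13, so that CDC6 was the 1 member with several kept probe sets that all passed 2-fold. Across the array this held for 63 of 6081 genes with at least 2 kept probe sets. CDC45, a component of the active helicase, had a signal of 127 with HOXD9 siRNA-2, against 270.0 with control siRNA (-1.09). POLE, the catalytic subunit of the leading-strand polymerase, had 75.6 with HOXD9 siRNA-2 and 163 with control siRNA (-1.11). CDC45 and POLE were each read by 1 probe set. After centering the log2 ratios were -1.33 for CDT1, -0.82 for CDC6, -0.79 for CDC45 and -0.81 for POLE.

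Promoter sequences are shown for CDC6, CDT1 and POLE, the genes past 2-fold whose window holds an E2F match, for the clamp PCNA and for CHAF1B, the member with the highest log2 ratio. The RefSeq windows of GRCh38.p14 run from 250 bases before to 50 after a gene's start, and 49 of the 56 members matched, with 64 windows. The E2F letters searched on both strands were TTTCGCGC, TTTGGCGC, TTTCCCGC and TTTGCCGC. Only exact matches to these words count, so near matches, which the windows shown also hold, are not marked. Matches on opposite strands can overlap, and a window counts once however many it holds. The windows lie at chr17:40287629-40287928 (CDC6, plus strand), chr16:88803539-88803838 (CDT1, plus strand), chr12:132687293-132687592 (POLE, minus strand), chr20:5126573-5126872 (PCNA, minus strand) and chr21:36385142-36385441 (CHAF1B, plus strand). In the sequences, printed 5' to 3' on the gene's strand, capitals mark the E2F matches.
CDC6: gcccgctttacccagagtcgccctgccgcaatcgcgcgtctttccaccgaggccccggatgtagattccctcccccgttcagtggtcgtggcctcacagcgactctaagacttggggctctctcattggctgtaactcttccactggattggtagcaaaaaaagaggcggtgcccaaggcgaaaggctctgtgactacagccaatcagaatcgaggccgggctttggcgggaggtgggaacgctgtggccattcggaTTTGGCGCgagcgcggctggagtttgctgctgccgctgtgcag
CDT1: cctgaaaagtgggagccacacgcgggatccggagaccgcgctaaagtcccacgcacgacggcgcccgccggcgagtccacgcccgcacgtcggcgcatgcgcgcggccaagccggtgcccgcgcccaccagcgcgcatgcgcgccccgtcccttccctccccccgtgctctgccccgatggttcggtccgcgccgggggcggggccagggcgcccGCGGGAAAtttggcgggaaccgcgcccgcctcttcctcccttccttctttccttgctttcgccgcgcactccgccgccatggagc
POLE: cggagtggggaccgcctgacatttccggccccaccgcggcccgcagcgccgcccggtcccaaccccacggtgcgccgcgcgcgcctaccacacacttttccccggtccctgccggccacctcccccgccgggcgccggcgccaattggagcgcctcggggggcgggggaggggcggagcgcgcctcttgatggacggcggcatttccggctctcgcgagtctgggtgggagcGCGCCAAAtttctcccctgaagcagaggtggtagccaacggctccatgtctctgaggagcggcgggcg
PCNA: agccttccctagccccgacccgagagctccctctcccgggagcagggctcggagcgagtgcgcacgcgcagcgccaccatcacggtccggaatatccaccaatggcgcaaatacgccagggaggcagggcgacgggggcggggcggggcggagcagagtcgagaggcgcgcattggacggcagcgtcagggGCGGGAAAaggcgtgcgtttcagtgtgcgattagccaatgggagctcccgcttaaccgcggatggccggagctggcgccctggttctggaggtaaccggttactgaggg
CHAF1B: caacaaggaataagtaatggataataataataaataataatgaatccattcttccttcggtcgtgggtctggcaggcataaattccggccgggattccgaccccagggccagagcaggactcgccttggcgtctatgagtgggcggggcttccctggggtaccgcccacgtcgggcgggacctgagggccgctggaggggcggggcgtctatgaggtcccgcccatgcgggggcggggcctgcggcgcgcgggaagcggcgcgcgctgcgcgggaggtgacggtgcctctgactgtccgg

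The match began 7 bases after the gene's start in CDC6, and 35 bases before it in CDT1, 18 in POLE and 59 in PCNA. PCNA had 2 windows, and the one not shown held no match. The CHAF1B window held no such letters. Of the 64 member windows 23 (35.9%) held an E2F match, against 3.31% of all 35116 windows. By gene, 23 of 49 matched members (46.9%) held one in at least 1 window, against 3.99% of genes in the table. The median log2 ratio was -0.65 in the 23 genes with a match, from -1.63 to -0.34, and -0.51 in the 26 without, from -1.09 to 0.28. The ranges overlapped, and CDC45, which was past 2-fold, had no match in its windows. The CCAAT box letters CCAAT were held by 53.1% of member windows and 34.6% of all windows, and the CHR letters TTTGAA by 4.69% and 15.2%. A match is a description of the letters in a window and not of a bound site.

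Within origin recognition and licensing the 9 genes differed among themselves more than in the other groups of more than 2 genes, with log2 ratios from -1.63 to 0.06 and a median of -0.53. ORC1, the subunit of the origin recognition complex whose level varies with the cell cycle, had 88.2 with HOXD9 siRNA-2 and 135 with control siRNA, a log2 ratio of -0.62. ORC2, a core subunit, had 188 with HOXD9 siRNA-2 and 179 with control siRNA (0.06) on its brighter probe set, and 113 with HOXD9 siRNA-2 and 136 with control siRNA (-0.28) on the other. ORC4, an ATPase subunit of the complex, had 501 with HOXD9 siRNA-2 and 514 with control siRNA (-0.04), whereas its dimmer probe set gave 90.3 with HOXD9 siRNA-2 and 78.2 with control siRNA (0.21). ORC2 and ORC4 thus had probe sets of both signs as deposited. After centering both probe sets of each gene were above 0, at 0.36 and 0.02 for ORC2 and 0.26 and 0.51 for ORC4. ORC3 and ORC6, further subunits of the complex, stood at -0.53 and -0.44. ORC5 gave -0.51 on its brightest probe set and -1.05 on another, with signals of 96.7 with HOXD9 siRNA-2 and 200.4 with control siRNA there. GMNN encodes geminin, which binds CDT1 and blocks a second round of licensing, and gave 551 with HOXD9 siRNA-2 and 863 with control siRNA (-0.65).

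The MCM genes had log2 ratios below 0 on every kept probe set. MCM2 to MCM7, which form the helicase ring in equal numbers, had log2 ratios from -0.93 to -0.43 with a median of -0.75, and after centering from -0.63 to -0.13. None of them was past 2-fold on its brightest probe set. Of the kept probe sets of the group, MCM8 included, 14 of 14 had log2 ratios below 0, against 18668 of 22690 over all genes. MCM4 was the lowest, with 316 with HOXD9 siRNA-2 against 605 with control siRNA (-0.93), and its 4 kept probe sets ranged from -0.93 to -0.55. MCM2 had 563 with HOXD9 siRNA-2 and 1006 with control siRNA (-0.84). MCM7 stood at -0.75, MCM3 at -0.74 and MCM5 at -0.72 on their brightest probe sets. MCM6 was the highest, with 1277 with HOXD9 siRNA-2 and 1724 with control siRNA (-0.43), whereas its dim probe set gave 22.4 with HOXD9 siRNA-2 and 46.2 with control siRNA (-1.04). MCM8, a related helicase of homologous recombination, gave -0.61 and -0.66 on its 2 probe sets. In this group 6 of 7 genes lay below the lower quartile of all genes.

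The genes of origin firing had the lowest median of the 9 groups as deposited, -0.77, or -0.47 after centering. After quantile normalization, after loess and with the probe sets of a gene averaged, the MCM group was lower (-0.49, -0.51 and -0.74, against -0.46, -0.47 and -0.72 for the firing group). All 8 lay below the lower quartile of all genes. All 14 kept probe sets were below 0, against 18668 of 22690 over all genes. MCM10, which helps to activate the helicase, had 3 kept probe sets. These gave 154, 87.1 and 45.3 with HOXD9 siRNA-2, against 302, 204 and 226 with control siRNA, or log2 ratios of -0.97, -1.23 and -2.32. The 3 probe sets agreed in sign but spanned more than 1 log2 unit, and all 6 signals lay above background. GINS1, GINS2, GINS3 and GINS4 form a tetramer of the active helicase, and their brightest probe sets lay between -0.79 and -0.76. GINS4 had 110.3 with HOXD9 siRNA-2 and 191 with control siRNA (-0.79), and GINS3 had 139.9 with HOXD9 siRNA-2 and 237 with control siRNA (-0.76). GINS1 and GINS2 both stood at -0.77. The other kept probe sets of GINS3 and GINS4 ranged from -0.72 to -0.44. CDC7 had 142 with HOXD9 siRNA-2 and 227 with control siRNA (-0.68), and its activator DBF4, the highest of the group, had 618 with HOXD9 siRNA-2 and 912 with control siRNA (-0.56). CDC45, with -1.09, was the lowest gene of the group and its only one past 2-fold on the brightest probe set.

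**Figure D3:**
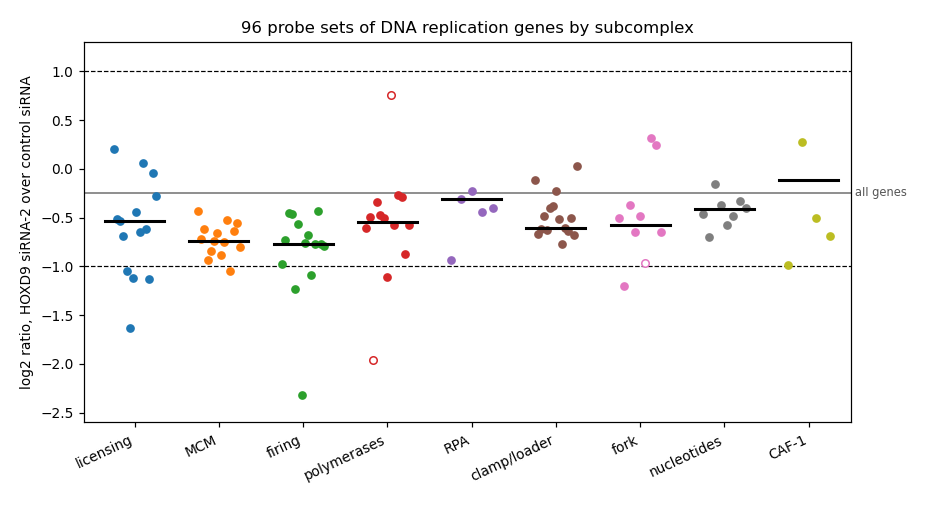
Log2 ratio of HOXD9 siRNA-2 over control siRNA (y axis) of the 96 kept probe sets of replication genes, by subcomplex (x axis, CAF-1 for chromatin assembly). Open points have 1 signal within background, black bars are medians over the brightest probe set of each gene, dashed lines mark 2-fold and the gray line the median of all genes, -0.25. All points of the MCM and firing groups lie below the gray line, and both signs occur in the licensing, polymerase, clamp and loader, fork and CAF-1 groups.

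The polymerases and primase had a median of -0.54, and 7 of 10 genes lay below the lower quartile of all genes. Apart from POLE the lowest was POLE3, a small histone-fold subunit of the same polymerase, with 637 with HOXD9 siRNA-2 and 1167 with control siRNA (-0.87), while POLE2, another accessory subunit, stood at -0.48. POLE4, the other small subunit of this polymerase, which is no member, stood at -0.13 and -0.12 on its 2 kept probe sets, so that the subunits of polymerase epsilon did not share 1 ratio. The delta polymerase, which copies the lagging strand, gave -0.58 for its catalytic subunit POLD1, 0.09 for the small subunit POLD4, which is no member, and -0.29 for POLD2, the highest member of the group, with 696 with HOXD9 siRNA-2 and 850.4 with control siRNA. POLD3, an accessory subunit, gave 122 with HOXD9 siRNA-2 and 171 with control siRNA (-0.49) on its brighter probe set. On the other it gave 30.4 with HOXD9 siRNA-2 and 17.9 with control siRNA. The latter lies within the background of 18.4, though above the 11.4 of its own array, so that POLD3 was at least 1.65-fold higher there. POLA1 and POLA2 of the polymerase that starts each strand gave -0.34 and -0.50, and the primase subunits PRIM1 and PRIM2 gave -0.61 and -0.58. A dim POLA2 probe set had 12.1 with HOXD9 siRNA-2, within background, and 47.0 with control siRNA, at least 2.56-fold lower, or 2.08-fold after centering, while the dimmest one gave -0.26. A pseudogene, PRIM2BP, shares probe sets with PRIM2, so the PRIM2 value is less certain.

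RPA, the trimer that coats single-stranded DNA, stood near the other genes of the array, with a median of -0.31 and 0 of 3 genes below the lower quartile. RPA1, the large subunit, had 851 with HOXD9 siRNA-2 and 998 with control siRNA (-0.23) on its brightest probe set. A second probe set gave 314 with HOXD9 siRNA-2 and 599.7 with control siRNA (-0.93), and the dimmest stood at -0.44. The 3 probe sets of RPA1 thus agreed in sign but not in size. RPA2, the lowest of the group on its brightest probe set, had 532 with HOXD9 siRNA-2 and 704 with control siRNA (-0.40), and RPA3 stood at -0.31. After centering the 3 brightest probe sets lay between -0.10 and 0.07.

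The clamp, its loader and the Okazaki fragment enzymes had a median of -0.60. PCNA, the sliding clamp, had 1220.1 with HOXD9 siRNA-2 and 1933 with control siRNA (-0.66). The lowest was DNA2, a nuclease and helicase that trims long flaps, with 64.4 with HOXD9 siRNA-2 and 109.6 with control siRNA (-0.77). FEN1, the flap endonuclease, stood at -0.51 and -0.64 on 2 probe sets, and LIG1, the ligase that joins the fragments, at -0.60. The loader RFC, a ring of 5 subunits, had a median of -0.50. RFC3, RFC4 and RFC5 gave -0.62, -0.62 and -0.50 on their brightest probe sets, and the other probe sets of RFC3 and RFC5 ranged from -0.68 to -0.22. RFC2 was the highest of the group, with 452 with HOXD9 siRNA-2 and 491 with control siRNA (-0.12), and its other probe set gave -0.38. RFC1, the large subunit, gave 274 with HOXD9 siRNA-2 and 361 with control siRNA (-0.40) on its brightest probe set, and 261 with HOXD9 siRNA-2 and 256 with control siRNA (0.03) on another. RFC1 was the loader gene with probe sets of both signs, and 7 of the 9 genes of the group lay below the lower quartile of all genes.

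Of the fork protection factors, TIMELESS and TIPIN form a complex that steadies the replisome, CLSPN encodes claspin, which relays the checkpoint signal, and WDHD1 links the helicase to the primase. Their median was -0.57. TIMELESS had 231 with HOXD9 siRNA-2 and 361 with control siRNA (-0.64), and its dim probe set gave 25.6 with HOXD9 siRNA-2 and 21.5 with control siRNA (0.25). TIPIN stood at -0.50. WDHD1, the lowest of the group, had 71.6 with HOXD9 siRNA-2 and 112 with control siRNA (-0.65), and its other probe sets gave -1.20 and -0.37. CLSPN, the highest, was dim, with 37.6 with HOXD9 siRNA-2 and 52.6 with control siRNA (-0.48) on its brightest probe set. Another CLSPN probe set gave 36.3 with HOXD9 siRNA-2 and 29.2 with control siRNA (0.32). The dimmest kept one gave 17.4 with HOXD9 siRNA-2, within background, and 33.9 with control siRNA, at least 1.84-fold lower. CLSPN therefore had probe sets of both signs at signals close to background.

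As deposited, the genes of nucleotide supply differed least from the other genes after RPA and CAF-1. Their median was -0.42, or -0.12 after centering, and 0 of 4 genes lay below the lower quartile. RRM2, the small subunit of ribonucleotide reductase that is made in S phase, had 3344 with HOXD9 siRNA-2 and 4662 with control siRNA (-0.48), and -0.70 on its other probe set. RRM1, the large subunit, stood at -0.46 and -0.57 on its 2 probe sets. TYMS, thymidylate synthase, had 3053 with HOXD9 siRNA-2 and 3936 with control siRNA (-0.37). TK1, the S phase thymidine kinase, was the highest, at 641 with HOXD9 siRNA-2 and 713 with control siRNA (-0.15), and its other probe set gave -0.40. Relative to all genes the median of the group was -0.16 as deposited, and -0.27 after quantile normalization, so that its nearness to the other genes depends on the scaling.

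The pair of chromatin assembly genes had ratios of opposite sign. CHAF1A and CHAF1B encode the large and the middle subunit of CAF-1, which deposits histones behind the fork. CHAF1A had 189.7 with HOXD9 siRNA-2 and 268 with control siRNA (-0.50), and its other kept probe sets gave -0.69 and -0.99. CHAF1B, read by 1 probe set, had 114 with HOXD9 siRNA-2 and 94.2 with control siRNA, a log2 ratio of 0.28, or 0.58 after centering. No second probe set or array bears on this value.

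Probe sets of one gene were compared with each other, which shows noise between probe sets but not between samples. Of 29 members with 2 or more kept probe sets, 23 (79.3%) had log2 ratios below 0 on every one, against 62.8% of 6081 such genes. After centering 18 (62.1%) did, against 21.2%. The 6 members of mixed sign as deposited were ORC2, ORC4, POLD3, RFC1, TIMELESS and CLSPN. The pooled SD over these 29 members was 0.41, as over all genes. Counting single probe sets, 11 of 96 (11.5%) were lower by more than 2-fold, against 6.26% of all kept probe sets with 1 gene, and after centering 3 (3.12%), against 2.78%. By more than 2-fold 0 were higher as deposited, against 0.582%, and 1 after centering, the dim one of POLD3, against 1.38%. Besides those of the 4 genes past 2-fold, the 11 were probe sets of ORC5, MCM6, MCM10, POLA2 and WDHD1. The other 27 members had 1 kept probe set, so that their ratios have no second reading.

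**Figure D4:**
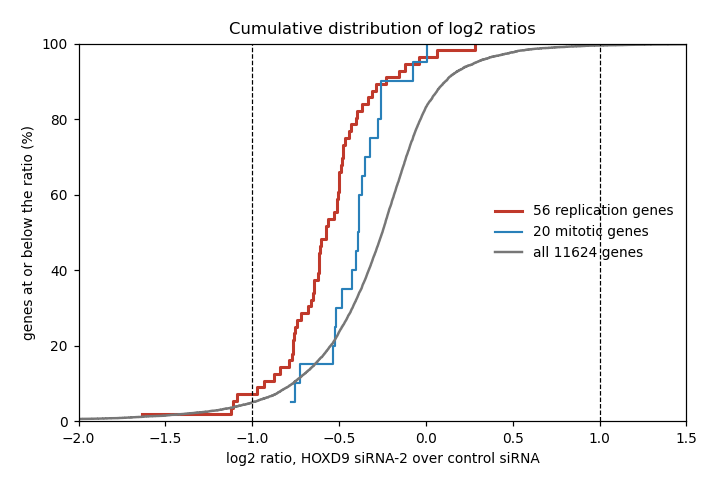
Percentage of genes (y axis) at or below a log2 ratio of HOXD9 siRNA-2 over control siRNA (x axis) for the 56 replication genes (red), 20 mitotic genes (blue) and all 11624 genes (gray), with dashed lines at 2-fold. The red curve lies left of the gray one over most of the range, with 50 of 56 genes below the gray median of -0.25. At the lowest ratios the curves cross, and no member lies below the -1.63 of CDT1, whereas 1.13% of all genes do.

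Further genes of DNA replication that are no members gave like values. The 25 listed genes that passed the filter had a median of -0.53, and 20 of them lay below the median of all genes and 15 below the lower quartile. By more than 2-fold 3 were lower, the origin firing factor TICRR (-1.47), the cohesin acetyltransferase ESCO2 (-1.02) and the histone chaperone ASF1B (276 with HOXD9 siRNA-2 and 554 with control siRNA), against 4.95% of all genes, and 0 were higher. TICRR had a second probe set at -0.02. After centering TICRR alone was past 2-fold, or 4% of these genes, against 2.31% of all genes.

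Regulators of the G1/S transition had a median of -0.52 over 11 genes, with CCND3 (-1.26) and CCNE2 (-1.13 and -1.21 on 2 probe sets) lower by more than 2-fold as deposited, or 18.2%, against 4.95% of all genes, and 0 after centering, against 2.31%. E2F1, singled out after its values were seen because it drives many replication genes, gave 200.1 with HOXD9 siRNA-2 and 154 with control siRNA (0.38) on its brighter probe set and 118 with HOXD9 siRNA-2 and 157 with control siRNA (-0.42) on the other, which differ in sign. The 20 mitotic genes had a median of -0.39, between those of the replication genes and of all genes. Of these 20 genes 18 lay below the median of all genes, 6 below the lower quartile, against 38 of the 56 members, and 0 were lower by more than 2-fold, against 4.95% of all genes. These lists share both arrays with the members, and the difference between lists was not tested.

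The order of the subcomplexes was compared under 9 ways of processing. Relative to all genes the median of the firing group lay between -0.53 and -0.45, that of the MCM group between -0.53 and -0.42, and these 2 groups were the lowest in each. RPA lay between -0.15 and -0.04. The fork group varied most among the groups below 0, between -0.40 and -0.15, and it was highest when probe sets ending in _x_at or _s_at were left out. CAF-1 lay between 0.05 and 0.55, where the highest value rests on CHAF1B alone.

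**Figure D5:**
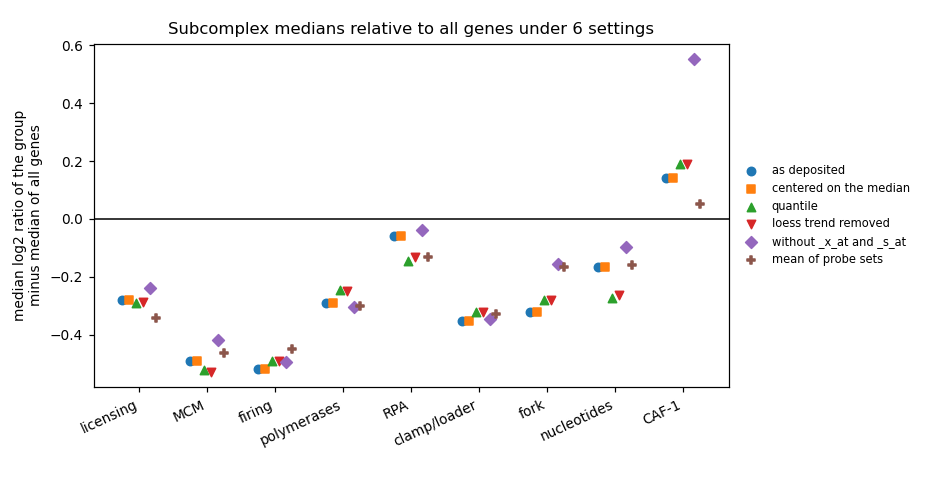
Median log2 ratio of each subcomplex minus the median of all genes (y axis) under 6 ways of processing (symbols), by subcomplex (x axis). The firing and MCM groups lie lowest in all 6, RPA lies near 0, between -0.15 and -0.04, and CAF-1 lies above 0 in all 6, with 2 genes, or 1 gene in the setting without _x_at and _s_at probe sets.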

How the data were processed

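The authors deposited linear probe set signal intensities for 2 Affymetrix U133 Plus 2.0 arrays, 1 per condition. The submitters' processing notes name GCOS, and the study's methods name GeneSpring. How the signals were scaled is not given in the sources used here, nor are detection calls. Of 54613 probe sets without the 62 controls, 41091 had 1 gene, 1801 several and 11721 were unnamed. Symbols were updated through Entrez numbers in RefSeq (GRCh38.p14), which 41037 matched.

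Log2 ratios were computed from the signals as deposited, with a filter at the median of the mean signals (19.8) and the brightest kept probe set for each gene. Calls are ratios past 2-fold. Where 1 signal lay within background, the ratio of the other to 18.4 is given as a bound. Precision is limited by the number of arrays.

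All 56 members are accounted for. Both signals are given for members past 2-fold, for the lowest and highest of each group and for members of mixed sign. Some others were added. The members, lists, groups and alternatives were chosen with earlier results of these data known. The alternatives were median centering, quantile normalization, loess (fraction 0.3), no filter, a filter at 75.7 (the 70th percentile), the 20th percentile as a floor, the mean over a gene's probe sets, and removal of those whose names end in _x_at or _s_at. The procedure was tested on simulated data with planted changes well past 2-fold on bright probe sets only. That test does not bear on changes as small as those of most members. Python 3.11.15, numpy 2.4.6, pandas 2.3.3, statsmodels 0.14.6 and matplotlib 3.10.9 were used.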

Additional observations from a re-analysis of the deposited data

Results flagged for a closer look

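Signals above background also lay on probe sets of members that the main comparison did not use. Of the 2 probe sets shared by PRIM2 and its pseudogene PRIM2BP that were above background, one gave 151 with HOXD9 siRNA-2 and 245 with control siRNA (log2 ratio -0.70), and the other 108 with HOXD9 siRNA-2 and 138 with control siRNA (-0.35). The remaining ones did not pass the signal filter and entered only the setting without a filter. An ORC5 probe set gave 13.3 with HOXD9 siRNA-2 and 23.2 with control siRNA, at least 1.26-fold lower, or 1.02-fold after centering. An RFC3 probe set gave 8.77 with HOXD9 siRNA-2 and 24.3 with control siRNA, at least 1.32-fold lower, or 1.07-fold after centering. GINS2 had 2 such probe sets, the first with 21.5 with HOXD9 siRNA-2 and 9.52 with control siRNA, at least 1.17-fold higher, and the second with 19.9 with HOXD9 siRNA-2 and 16.9 with control siRNA, at least 1.08-fold higher. These GINS2 signals ran opposite to the brightest GINS2 probe set (-0.77).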

How the results depend on the processing

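As deposited, 4 replication genes were lower by more than 2-fold, against 4.95% of all genes, and 0 higher, against 0.516%. The count of lower genes was 1 after centering on the median, 1 after quantile normalization and 1 after loess, with CDT1 in each case. The shares of all genes there were 2.31%, 2.24% and 2.25%. At 1.5-fold, a threshold chosen after the data were seen, the count was 27, against 17.8% of all genes. After centering it was 6 at 1.5-fold, against 6.74%. Without probe sets ending in _x_at or _s_at the count past 2-fold was 3 of 41 genes (CDC6, MCM10 and POLA2), against 5.83% of all genes. CDT1, CDC45 and POLE have only such probe sets and so were not among the 41. Averaging the probe sets gave 5, the same 4 with MCM10, against 4.53% of all genes. The 11 lower probe sets, of 96, became 3 under centering, quantile normalization and loess alike. Without _x_at and _s_at probe sets the count was 4, out of fewer probe sets, so it cannot be set directly against 11. Over all kept probe sets with 1 gene the share was 6.26% as deposited and 2.78% after centering. No such share is given for the other settings. The 0 higher probe sets, against 0.582%, became 1 (POLD3, measured ratio to a signal within background) under centering, quantile normalization and loess. After centering the share of all kept probe sets was 1.38%. Without a signal filter the count was 2, with no share of all probe sets given. These were an MCM4 probe set with both signals within background and a GINS2 probe set at least 1.17-fold higher.

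Relative to all genes, the median of the members lay between -0.34 and -0.30 under the 9 settings. By averaging, CDT1 stood at -1.16, MCM10 at -1.51, POLA2 at -0.91 and TIMELESS at -0.20, and POLA2 stood at -1.96 without _x_at and _s_at. POLD3 stood at 0.14 by averaging and TIMELESS at 0.25 without those probe sets. No paired analysis was possible because each condition has 1 array. Leaving out an array is likewise impossible. Low signals limit CLSPN and the dim probe sets of POLA2, POLD3 and TIMELESS most.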
